A study of Mus musculus with 2 samples.

Results

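The tubulin isotype genes measured in adult mouse brain were Tuba1a, Tuba1b, Tuba1c and Tuba4a of the alpha class and Tubb2a, Tubb2b, Tubb3, Tubb4a, Tubb4b and Tubb5 of the beta class. They were chosen by name, not by their values, though with earlier results of these data known. Their rows are those of the gene and transcript tables that map to these genes by identifier without its version. All 10 genes had a row, of 43346 genes in the tables, and they had 24 of the 103639 transcripts. The data are polyA-selected RNA sequencing of whole brain tissue of a male mouse of the inbred strain C57BL/6J, an adult of 10 weeks, with no treatment or genetic change given in the labels. RNA was extracted with a kit for fatty tissue, the RNeasy Lipid Tissue Mini Kit. There was 1 group, of 2 libraries that the labels call technical replicates 1 and 2 of biological replicate 1, both from 1 mouse, and replicate 2 was made later. The design therefore holds no comparison of conditions, the spread between the libraries contains no variation between animals, and n = 2 below counts libraries.

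Microtubules are hollow filaments built from dimers of an alpha- and a beta-tubulin, and they carry transport along axons and dendrites, shape neurons and form the core of cilia. Mammals encode each class in several genes whose proteins, the isotypes, are nearly alike through the globular body and differ most in a short acidic tail at the C terminus, where enzymes add and remove glutamates, glycines and, on alpha-tubulin, the last tyrosine. Tuba1a and Tubb3 are known for their expression in neurons, Tubb2a and Tubb2b for theirs in the nervous system, Tubb4a for oligodendrocytes and neurons, Tubb4b for cilia, and Tuba1b, Tuba1c and Tubb5 for a broad expression in dividing cells.

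Total estimated counts were 18302506 in replicate 1 and 17828479 in replicate 2, but the libraries differed in content. Genes at a TPM of at least 1 numbered 11608 and 14780, and mitochondrial genes with their nuclear copy held 63.1% and 28.1% of TPM (a level per transcript length that sums to a fixed total in every library). Across genes the difference between the libraries rose with GC content (Spearman's rho 0.89 over 14188 genes, which share the same libraries). All 6 neuron markers had a TPM of at least 1 in both libraries, with summed TPM of 4448 and 4758. Snap25 made up most of that sum (3457 and 2764) and was called lower, while 2 neuron markers, Rbfox3 and Eno2, were called higher. Oligodendrocyte markers summed to 1945 and 2744, with 2 called higher and 0 lower, and astrocyte markers to 993 and 1781. Of the astrocyte markers only Aldoc was called higher (199 and 1022), and 2 were called lower, Aqp4 and Slc1a2. Summed markers of most other cells that the sample could hold were also higher in replicate 2. Choroid plexus summed to 76.9 and 872, nearly all of it Ttr (72.0 and 856), while Kl had 4.92 and 6.15 and was not called. Ependyma summed to 1.84 and 22.7, erythroid cells to 46.6 and 948, endothelium to 15.1 and 79.2 and microglia to 64.1 and 168. Of the endothelium markers, Cldn5 (0.40 and 48.6) and Pecam1 (3.76 and 12.7) were called higher, while Flt1 (10.9 and 17.9) was not called. Foxj1, Folr1 and Hba-a1 were at 0 in replicate 1. Of the microglia markers 2 were called higher and 1 lower, P2ry12 (47.7 and 34.0). Markers of tissues outside the brain were low, at 0.11 and 6.63 for liver, 0.06 and 10.1 for skeletal muscle and 0 and 2.93 for testis germ cells, and newborn neurons had 13.9 and 9.86. Their part in the tubulin values was not tested. In bulk tissue, fewer cells of a type and less RNA per cell cannot be told apart. Neither can be told apart here from a technical difference between the libraries, which are from 1 mouse and differ along GC content.

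The tails are shown because the encoded isotypes generally differ most there, though close copies can be nearly alike in the tail as well. Each sequence is the last 60 coding bases, stop codon included, read 5′ to 3′ on the gene's own strand from GENCODE M21 on GRCm38 (mm10), the build of the deposited tables. Each lies within 1 exon, and capitals mark the glutamate codons GAA and GAG. Of the alpha genes, the tails of Tuba1c and Tuba4a were as follows.
Tuba1c, chr15:99037950-99038009, plus strand: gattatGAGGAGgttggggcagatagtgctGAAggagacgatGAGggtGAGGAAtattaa
Tuba4a, chr1:75215622-75215681, minus strand: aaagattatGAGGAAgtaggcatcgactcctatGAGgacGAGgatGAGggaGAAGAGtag
Tuba1c held 6 glutamate codons of 20 codons and Tuba4a held 7. Before the stop codon Tuba1c ended in tat, a tyrosine codon, and Tuba4a in gag, a glutamate codon. The beta tails were as follows.
Tubb2a, chr13:34074468-34074527, minus strand: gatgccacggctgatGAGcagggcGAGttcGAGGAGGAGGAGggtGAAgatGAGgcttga
Tubb2b, chr13:34127471-34127530, minus strand: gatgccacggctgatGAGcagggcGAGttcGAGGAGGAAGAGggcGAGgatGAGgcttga
Tubb3, chr8:123421623-123421682, plus strand: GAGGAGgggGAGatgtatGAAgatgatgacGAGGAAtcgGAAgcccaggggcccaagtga
Tubb4a, chr17:57080690-57080749, minus strand: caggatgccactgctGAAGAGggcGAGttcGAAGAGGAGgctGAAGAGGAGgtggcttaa
Tubb4b, chr2:25222308-25222367, minus strand: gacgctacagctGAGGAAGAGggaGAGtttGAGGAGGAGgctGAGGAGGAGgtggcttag
Tubb5, chr17:35834982-35835041, minus strand: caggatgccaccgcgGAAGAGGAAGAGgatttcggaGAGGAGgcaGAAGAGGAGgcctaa
Tubb2a and Tubb2b differed at 3 of 60 bases. Each of these lies between codons of the same amino acid (GAG and GAA, ggt and ggc), so both genes encode the same tail. Glutamate codons numbered 8 in Tubb2a and in Tubb2b, 7 in Tubb3, 9 in Tubb4a, 10 in Tubb4b and 9 in Tubb5. The beginning of the message also separates the classes. The first 12 coding bases matter because newly made tubulin is recognised by its N terminus when its messenger RNA is degraded in response to free tubulin. They were atgcgtgagtgc in Tuba1a, Tuba1b and Tuba1c and atgcgcgagtgc in Tuba4a. The beta genes had atgcgcgagatc (Tubb2a), atgcgagagatc (Tubb2b), atgagggagatc (Tubb3 and Tubb4b), atgcgggaaatc (Tubb4a) and atgagggaaatc (Tubb5).

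Coding sequences were 84.7% to 98.3% identical over the 6 alpha pairs and 81.2% to 96.5% over the 15 beta pairs, and 52.5% to 55.4% over the 24 pairs across classes. Tuba1a and Tuba1b were the closest alpha pair, at 98.3%, and Tubb2a and Tubb2b the closest beta pair, at 96.5%. The longest identical run was 281 bases between Tuba1a and Tuba1b, 468 between Tuba1b and Tuba1c and 551 between Tubb2a and Tubb2b. Between an alpha and a beta gene no identical run was longer than 18 bases.

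Tuba1a (ENSMUSG00000072235.5, chr15:98949837-98953703, minus strand), a main alpha isotype of neurons, reached 229.6 TPM in replicate 1 and 1617 TPM in replicate 2, from 4829.8 and 25567 expected counts. It was the most abundant of the 10 genes in both libraries and ranked 251 and 35 among all genes by TPM. Its mean was 923 ± 981 (SD, n = 2). Tuba1b (ENSMUSG00000023004.8, chr15:98931425-98934565, minus strand), a broadly expressed alpha isotype, had 33.1 and 840.0 TPM, from 743 and 14149 counts, with a mean of 437 ± 571 (SD, n = 2). The level in replicate 2 was higher for both genes, and the step was larger for Tuba1b: Tuba1a stood 6.93 times above it in replicate 1 and 1.925 times in replicate 2. Tuba1c (ENSMUSG00000043091.8, chr15:99029891-99038110, plus strand), the third close copy, had 0.12 and 3.08 TPM, from 3.16 and 59.8 counts, with a mean of 1.60 ± 2.09 (SD, n = 2). It was the lowest of the 10 in both libraries, and in replicate 1 its count was close to 3, the number that a count of 0 still allows. Tuba4a (ENSMUSG00000026202.9, chr1:75214228-75219865, minus strand), the alpha isotype that encodes no final tyrosine, had 37.0 and 564 TPM, from 980 and 8999 counts, with a mean of 300.5 ± 373 (SD, n = 2). Its level was above Tuba1b in replicate 1 and below it in replicate 2.

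The 6 beta genes were also each higher in replicate 2. Tubb2a (ENSMUSG00000058672.6, chr13:34074274-34078007, minus strand) had 22.3 and 554 TPM, from 449 and 8388 counts, with a mean of 288 ± 376 (SD, n = 2). Its close copy Tubb2b (ENSMUSG00000045136.5, chr13:34126748-34130466, minus strand) had 13.0 and 132 TPM, from 324 and 2476 counts, with a mean of 72.3 ± 83.9 (SD, n = 2). Tubb2b was the lowest beta gene in both libraries, and Tubb2a was the fourth of 6 in replicate 1 and the highest in replicate 2. Tubb3 (ENSMUSG00000062380.3, chr8:123411424-123422015, plus strand), the class III isotype used as a neuron marker, had 25.7 and 309 TPM, from 622 and 5625 counts, with a mean of 167 ± 200.1 (SD, n = 2). Tubb4a (ENSMUSG00000062591.5, chr17:57080066-57087782, minus strand) had 27.3 and 464 TPM, from 802 and 10256 counts, with a mean of 245 ± 308 (SD, n = 2). Tubb4b (ENSMUSG00000036752.4, chr2:25222160-25224702, minus strand) had 18.2 and 389 TPM, from 371 and 5941 counts, with a mean of 204 ± 262 (SD, n = 2). Tubb3 exceeded Tubb4b in replicate 1 and was below it in replicate 2. Tubb5 (ENSMUSG00000001525.10, chr17:35833921-35838306, minus strand), the broadly expressed class I isotype, had 27.6 and 278 TPM, from 677 and 7324 counts, with a mean of 153 ± 177 (SD, n = 2). It was the highest beta gene in replicate 1 and the fifth of 6 in replicate 2. In replicate 1, 10.8 of its 27.6 TPM came from the retained-intron transcript Tubb5-203, which had 0 TPM in replicate 2. Its main transcript, Tubb5-201, alone had 16.8 and 273 TPM, which is below Tubb4b in both libraries.

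**Figure D1:**
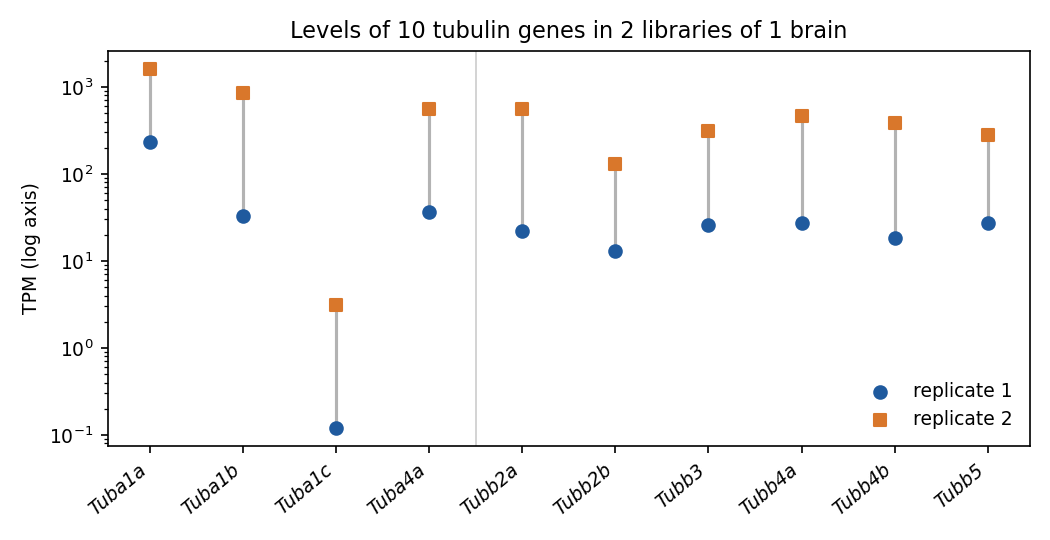
TPM on a log axis of each tubulin gene in replicate 1 (circles) and replicate 2 (squares), joined by a line for each gene, with alpha genes left of the vertical line and beta genes right of it. Every gene is higher in replicate 2, Tuba1a is the highest in each library (229.6 and 1617) and Tuba1c the lowest (0.12 and 3.08).

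For all 10 genes the SD was larger than the mean, and all 10 differed in the same direction between the libraries, so levels were compared within each library. Of the 45 pairs of genes 37 had the same order in both libraries and 8 turned, 1 of 6 among alpha genes, 7 of 15 among beta genes and 0 of 24 between an alpha and a beta gene. The levels in the 2 libraries correlated with a Spearman's rho of 0.81 over the 10 genes and 0.14 over the 6 beta genes, which is a description of the same 2 libraries. By mean, the order was Tuba1a, Tuba1b, Tuba4a, Tubb2a, Tubb4a, Tubb4b, Tubb3, Tubb5, Tubb2b and Tuba1c. Neighbours kept their order in both libraries for Tuba1a over Tuba1b, Tuba4a over Tubb2a (1.66 and 1.02 times), Tubb4a over Tubb4b (1.496 and 1.19 times), Tubb5 over Tubb2b (2.12 and 2.11 times) and Tubb2b over Tuba1c (108 and 42.7 times). The other 4 neighbours turned between the libraries. The deposited credibility bounds of Tuba4a and Tubb2a overlapped in replicate 2, at 507 to 539 and 499 to 522. In replicate 1 those of Tuba1b (29.1 to 33.7) and Tuba4a (33.5 to 38.6), the alpha pair that turned, overlapped, and those of Tubb5 (23.0 to 29.9), Tubb4a (24.0 to 27.5) and Tubb3 (22.4 to 26.1) did too. The bounds belong to the posterior mean of TPM and need not contain the TPM itself.

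Summed TPM was 299.8 and 3024 for the alpha genes and 134 and 2125 for the beta genes, so alpha stood 2.24 and 1.42 times above beta. The 10 genes together held 0.0434% and 0.515% of all TPM, or 433.8 and 5149.6 TPM. With TPM rescaled to leave out mitochondrial genes and their nuclear copy, the sums were 1175 and 7161, which narrows the difference between the libraries. By counts they held 0.0536% of replicate 1 (95% exact Clopper-Pearson interval 0.0525% to 0.0546%) and 0.498% of replicate 2 (0.495% to 0.501%), where the interval covers counting error only. Tuba1a made up 76.6% of the alpha TPM in replicate 1 and 53.5% in replicate 2, Tuba1b 11.1% and 27.8%, Tuba4a 12.3% and 18.7% and Tuba1c 0.04% and 0.10%. Tuba1a, Tuba1b and Tuba1c together held 87.7% and 81.4%, a narrower range than for Tuba1a alone. Of the beta TPM, Tubb2a made up 16.6% and 26.1%, Tubb4b 13.6% and 18.3% and Tubb4a 20.4% and 21.8%. The shares of the other beta genes were lower in replicate 2, at 20.6% and 13.1% for Tubb5, 19.2% and 14.5% for Tubb3 and 9.68% and 6.19% for Tubb2b. No beta gene held over 26.1% in either library.

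**Figure D2:**
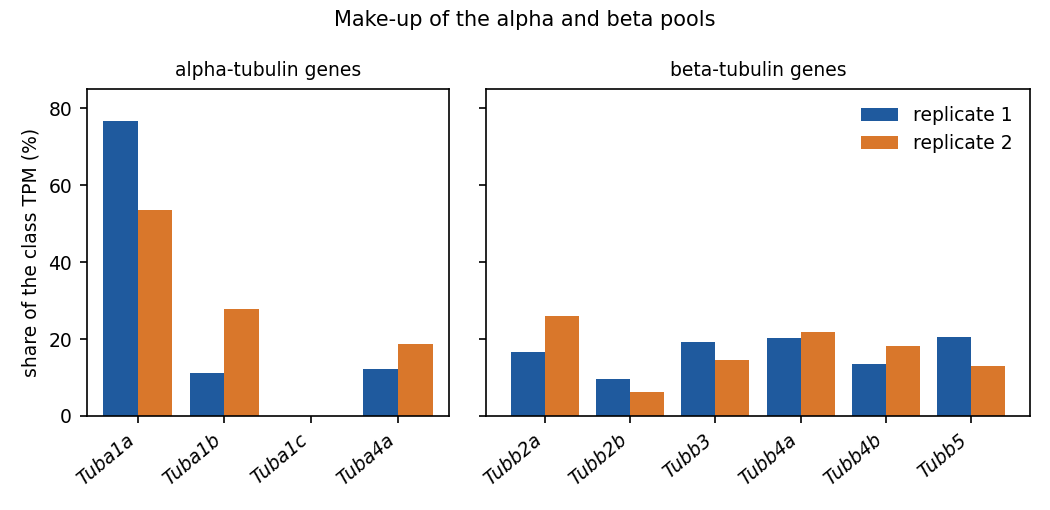
Share of the summed TPM of its class, in percent, for each alpha gene (left) and each beta gene (right), with 1 bar for each library. Tuba1a holds 76.6% of the alpha sum in replicate 1 and 53.5% in replicate 2, and each beta gene lies between 6.19% and 26.1% of the beta sum.

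All 10 genes were called higher in replicate 2 and 0 lower, against 34.5% of the 16320 genes tested called higher. A call needed a Benjamini-Hochberg adjusted p under 0.05 over all genes in a two-sided exact binomial test on rounded expected counts, with library sizes scaled by TMM, and a difference of at least 2-fold. The test compares these 2 libraries and not conditions, and it has no replicate check. The largest adjusted p among the members was 2.7e-10, for Tuba1c in the exact binomial test, and the next was 2.0e-246, for Tubb2b. With library totals in place of TMM, 84.7% of all called genes were higher, against 59.0% with TMM, and all 10 tubulins were again called higher. TPM in replicate 2 was 25.7 times that in replicate 1 for Tuba1c (95% counting interval 8.37 to 128), 25.4 times for Tuba1b (23.5 to 27.3) and 24.9 times for Tubb2a (22.6 to 27.4). The ratio was 21.3 for Tubb4b (19.2 to 23.8), 17.0 for Tubb4a (15.8 to 18.3), 15.3 for Tuba4a (14.3 to 16.3) and 12.02 for Tubb3 (11.1 to 13.1). It was lowest for Tubb2b, at 10.1 (9.03 to 11.4), Tubb5, at 10.1 (9.33 to 10.9), and Tuba1a, at 7.05 (6.83 to 7.27). The intervals of Tuba1b and Tuba1a did not overlap, nor did those of Tubb2a and Tubb2b, so within each of these close pairs the ratio differed by more than counting error. These intervals leave out the error of splitting shared reads between the genes. The median log2 ratio of TPM + 1 was 3.72 over the members, 3.35 over the alpha and 3.79 over the beta genes, beside 0.88 over all 14229 genes whose mean TPM reached 1. On the log2 scale of TMM-scaled counts the medians were 2.98 for the members and 0.09 for those genes.

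The tubulin transcripts are GC-rich, at 51.2% (Tubb2b) to 57.9% (Tubb3) beside a median of 49.9% over genes whose mean TPM reached 1. GC content was higher in their coding parts, at 54.4% to 58.7%, than in their 3′ untranslated parts, at 36.1% to 53.4%. Among genes of 50% to 55% GC whose mean TPM reached 1, the median log2 TPM ratio was 1.60 over 3677 genes. Of the 3639 tested, 50.2% were called higher, and this class holds Tuba1a, Tuba4a, Tubb2b, Tubb4b and Tubb5. In the class of 55% to 60%, with Tuba1b, Tuba1c, Tubb2a, Tubb3 and Tubb4a, the median was 3.03 over 2758 genes and 92.7% of the 2729 tested were called higher. Against genes of like GC content, 9 of the 10 tubulins lay above the class median and 8 above the upper quartile. Tuba1c lay below the median, with a ratio of TPM + 1 that its low level understates, and Tubb3 lay between the median and the upper quartile. With the lowess trend on GC removed, the log2 count ratio was 1.91 for Tubb5, 1.67 for Tubb2b, 1.23 for Tuba1b, 1.22 for Tubb2a, 1.17 for Tubb4b, 1.11 for Tuba4a, 0.57 for Tuba1c and 0.37 for Tuba1a. It was -0.34 for Tubb4a and -1.14 for Tubb3, so 8 were positive and 2 negative. Over the 16263 tested genes of known GC content the remaining ratios had an SD of 1.18. The signs depend on the scale: with the trend removed from the log2 ratio of TPM + 1, Tubb4a was at 0.89 and Tubb3 at 0.25, only Tuba1c was negative, at -1.04, and the median was 1.81 with 9 of 10 positive. Within the 10 tubulins the ratio and GC content correlated with a rho of 0.28. How far GC content sets the tubulin ratios was not tested.

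**Figure D3:**
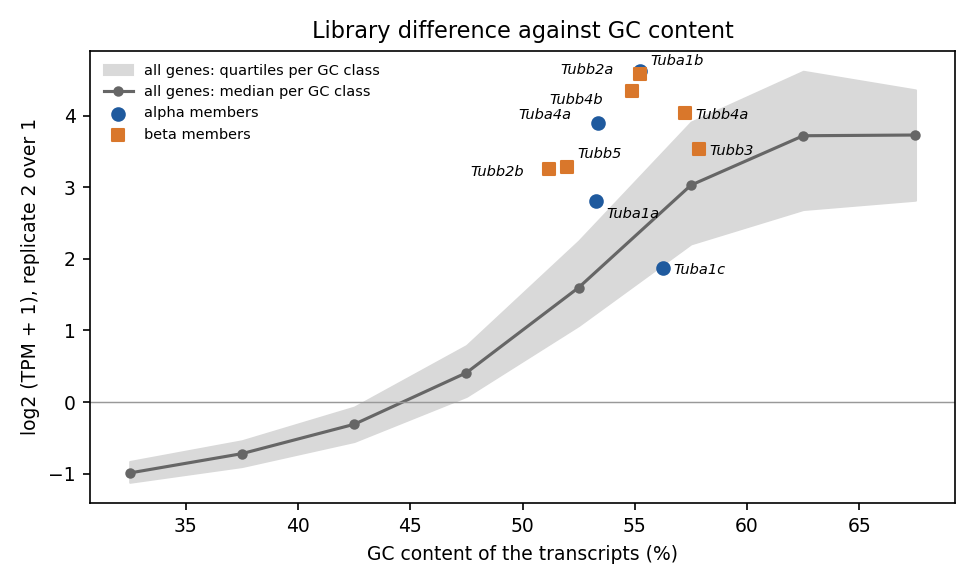
Log2 ratio of TPM + 1, replicate 2 over replicate 1, against GC content in percent for the alpha genes (circles) and beta genes (squares). The line is the median and the shading the quartiles of all genes whose mean TPM reached 1, in classes of 5 percentage points. The tubulins lie between 51.2% and 57.9% GC, and 8 of 10 are above the upper quartile of their class.

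Transcript makeup differed between the libraries in Tuba4a and Tubb5. Of the 24 transcripts 13 had at least 5% of their gene's TPM in either library, and the main transcript held at least 99.65% in every member except Tuba4a and Tubb5. In Tuba4a, the transcript Tuba4a-201 held 90.9% of the gene's TPM in replicate 1 and 55.4% in replicate 2, from 918 and 6418 counts. Tuba4a-205 (chr1:75216435-75219243), a retained-intron form of 815 bases of which 284 lie outside the exons of the main transcript, held 6.12% and 25.3%, from 20.6 and 970.2 counts. Tuba4a-206 (chr1:75215612-75217434), a form of 1205 bases, held 0% and 14.1%, from 0 and 875 counts. All 1205 bases of Tuba4a-206 lie within the exons of the main transcript, so its reads can also match Tuba4a-201. As a share of the gene's counts, the retained-intron form was 2.14% in replicate 1 (95% exact Clopper-Pearson interval 1.33% to 3.26%) and 10.8% in replicate 2 (10.1% to 11.4%). These intervals cover counting error only and leave out the error of splitting reads between transcripts. The deposited posterior SDs of the counts were 1.25 and 26.9 for Tuba4a-205, 10.6 and 106.5 for Tuba4a-201, 0.6 and 92.3 for Tuba4a-206 and 12.7 and 1.46 for Tubb5-203. The shares of Tubb5 differed in the opposite direction. Tubb5-201 held 61.0% and 98.0%, from 595 and 7278 counts. A retained-intron form, Tubb5-203 (chr17:35836247-35838217), 711 bases with 354 outside the main exons, held 39.0% and 0%, from 81.7 and 0 counts. Another retained-intron form, Tubb5-204, went the other way, at 0% and 1.68%, from 0 and 40.2 counts. By counts Tubb5-203 was 12.1% of the gene in replicate 1 (9.75% to 14.8%) and 0% in replicate 2, with an exact interval up to 0.05%.

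**Figure D4:**
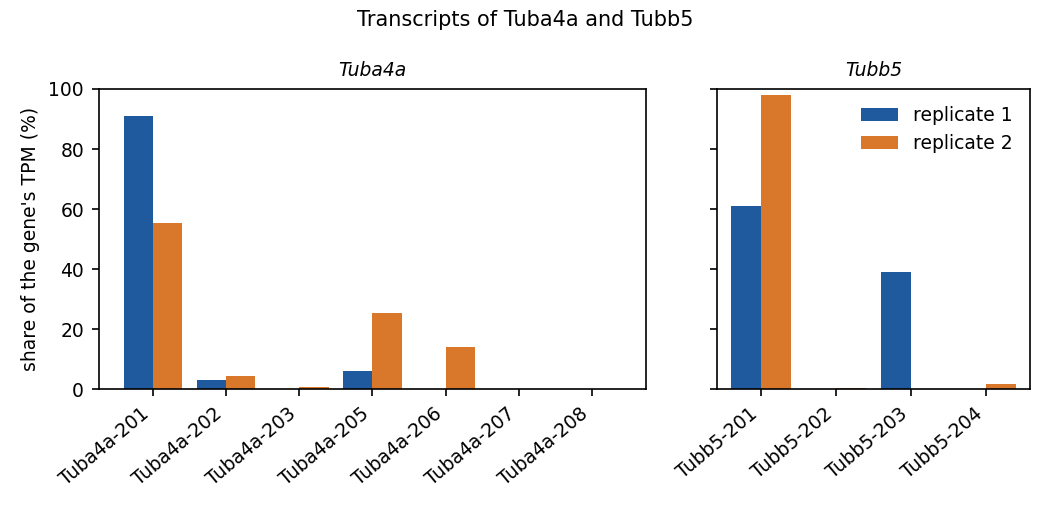
Share of the gene's TPM in percent for each transcript of Tuba4a (left) and Tubb5 (right) that is above 0 in at least 1 library, with 1 bar for each library. Tuba4a-201 holds 90.9% in replicate 1 and 55.4% in replicate 2, and Tubb5-201 holds 61.0% and 98.0%.

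The effective length, by which a gene's counts are divided to give TPM, follows the transcript shares. It was 1845 and 1472 bases for Tuba4a and 1710 and 2428 bases for Tubb5, and 0.995 to 0.998 times as long in replicate 2 as in replicate 1 for the other 8 genes. The TPM ratio was 1.33 to 1.36 times the raw count ratio in those 8 genes, 1.66 times in Tuba4a and 0.93 times in Tubb5. Tuba4a's count ratio was 9.18 and Tubb5's was 10.8, so by counts Tubb5 had the larger ratio of the pair and by TPM Tuba4a did. The annotated coding start of Tuba4a-201 is incomplete in the reference, so Tuba4a-202 supplied its coding sequence above.

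Reads can match several tubulin genes, and how many depends on the gene. Of the windows of 100 bases in the main transcript, 69.5% in Tuba1b, 65.1% in Tuba1a and 53.4% in Tuba1c also occur in a transcript of another gene on the same strand, as do 36.9% in Tubb2a, 29.2% in Tubb4b and 27.8% in Tubb2b. None did in Tuba4a, Tubb3, Tubb4a or Tubb5 at this length. The sources used here do not name the read length. With windows of 50 bases 9 of the 10 genes shared at least 1 window, with 1.52% in Tuba4a and 50.9% in Tubb4b. Without pseudogenes the share was 0% for Tubb4b, whose windows recur in Tubb4b-ps1, Tubb4b-ps2 and Gm16165. Tuba1b shared 48.6% of its windows with Tuba1c and 27.25% with Tuba1a. The deposited posterior SD of the count was 43.6% of the count of Tuba1c in replicate 1 and 11.7% in replicate 2. It was under 1% for every other member, at most 0.967% (Tubb2b in replicate 2), and 0 for the 4 genes with no shared window of 100 bases. The posterior SD does not carry the difference between the libraries: the values of Tuba1a, Tuba1b, Tubb2a and Tubb2b are as the quantifier split them, and Tuba1c is the least certain of the 10. Tuba1a and Tuba1b overlap Gm49450 on the same strand in the reference. It has no gene row in the tables, whose transcripts of Tuba1a include Gm49450-201 (0 and 3.91 counts), so part of what Tuba1a shares with another gene is Tuba1a itself in the tables. With the other members alone Tuba1a shared 38.4% and Tuba1b 52.3% of its windows. In addition, Tubb3 overlaps Gm20388 on its own strand, at 1.18 and 10.1 TPM. The sources used here do not say whether counting used the strand, so reads of Tuba4a and of Stk16 on the opposite strand (7.76 and 90.3 TPM) may not be told apart where they overlap.

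**Figure D5:**
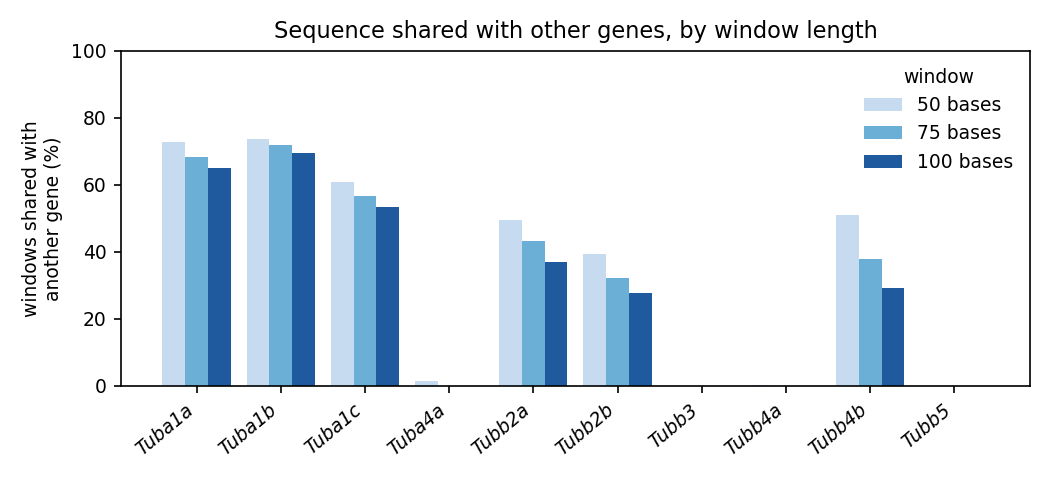
Percent of windows of 50, 75 and 100 bases in each gene's main transcript that also occur in a transcript of another gene on the same strand. At 100 bases Tuba1b (69.5%), Tuba1a (65.1%) and Tuba1c (53.4%) share most, and Tuba4a, Tubb3, Tubb4a and Tubb5 share none.

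The other tubulin genes measured were each below every member except Tuba1c in both libraries. Of 10 other tubulin genes 6 had enough counts to test, 3 were called higher in replicate 2 and 0 lower. Tuba8, an alpha isotype, had 0.99 and 8.69 TPM, and the gamma-tubulins that nucleate microtubules had 0.39 and 36.3 TPM (Tubg1) and 1.64 and 42.9 TPM (Tubg2), with all 3 called higher. Tubb6 (0.04 and 0.53 TPM, from 1 and 9 counts), Tubd1 (2.47 and 4.83) and Tube1 (0.84 and 1.31) were not called. With library totals 4 were called higher, Tubb6 among them, and 0 lower. Tuba3a and Tuba3b had 0 counts in replicate 1 and 1.29 and 3.71 in replicate 2, and Tubal3 and Tubb1 had 0 in both. The median log2 ratio of TPM + 1 over the list was 0.45, but 4 of the 10 genes were at or below 0.22 TPM in both libraries, where the added 1 holds the ratio near 0.

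The genes that fold tubulin, modify it and start microtubules were compared in the same fit, where 34.5% of all genes tested were called higher and 24.0% lower. Of 14 folding genes, the prefoldin subunits and tubulin cofactors with Ttc5, which recognises newly made tubulin, 7 were called higher and 3 lower, with a median log2 TPM ratio of 1.94. With library totals the counts were 8 and 1. Pfdn5, a prefoldin subunit, had 36.3 and 459 TPM and was called higher, as was Arl2, a GTPase that works with the cofactors, at 1.20 and 70.6. Tbca, a beta-tubulin cofactor, had 246 and 197 TPM and Vbp1, a prefoldin subunit, 169.9 and 77.5, and both were called lower, Tbca not with library totals. Of 24 tubulin-modifying enzymes 23 were tested, 9 were called higher and 3 lower, with a median of 0.91, and with library totals 13 and 1. Sirt2, a tubulin deacetylase, had 13.0 and 125 TPM and Tpgs1, a polyglutamylase subunit, 0.08 and 44.7, from 1 and 443 counts, and both were called higher. Ttll7, a polyglutamylase, had 205 and 149 TPM and Agtpbp1, which removes glutamates, 139 and 115, both called lower, Agtpbp1 not with library totals. The 8 nucleation genes had 3 called higher and 3 lower, with a median of 0.53, and with library totals 3 and 0. Mzt1, a small subunit of the gamma-tubulin ring complex, had 120.4 and 83.7 TPM and was called lower. Tubgcp4 had 17.8 and 19.8 TPM and was called lower by counts (840 and 615), so its TPM and its call differ in direction. Neither was called with library totals. Mzt2 had 0.94 and 28.0 TPM and was called higher, and Tubgcp3 had 13.1 and 25.1 and was not called.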

How the data were processed

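RNA sequencing tables of 2 libraries of 1 mouse brain were used. The expected counts, TPM, FPKM and percent of a gene's TPM in each transcript were deposited by the authors; per the deposited file listing they were made on mm10 with annotation M4 from transcriptome alignments. For the quantifier, aligner and strand setting the sources used here give no name. The posterior SDs and credibility bounds are other deposited columns.

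Expected counts were rounded, and each gene whose libraries summed to 10 counts or more entered an exact two-sided binomial test (scipy 1.17.1) with TMM sizes (edgeR 4.0.16, R 4.3.3). Calls needed a Benjamini-Hochberg adjusted p under 0.05 and a 2-fold difference after adding 0.5 to the counts. Quasi-likelihood and DESeq2 tests could not be fitted with 1 library on each side, so DESeq2 1.42.0 gave size factors only. TMM factors were first taken from all genes; after the calls were seen they were taken from genes with at least 10 counts, and the closing section gives both. TPM ratios use log2(TPM + 1), a pseudocount of 1. GC trends used lowess with a fraction of 0.2 (statsmodels 0.14.6). The test was tested on simulated data. Sequences and windows came from GENCODE M21 on GRCm38, matched by identifier; the main transcripts of Tuba1a, Tuba1c, Tubb2a and Tubb2b differ in length from those of the tables. Proteins were not analysed here, and 2 of the 10 tail sequences are not reported here.

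Named were all members, all other tubulins, the 3 genes of highest mean TPM of each other list with its called genes of highest and lowest ratio, transcripts with at least 5% of their gene, and genes holding at least 10% of a member's windows. The members and lists were chosen with earlier results of these data known.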

Additional observations from a re-analysis of the deposited data

How the results depend on the processing

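All 10 tubulins were called higher and 0 lower with library totals, DESeq2 size factors, posterior mean counts, no filter on low counts, no minimum fold and TMM factors from all genes. That last setting was the one first computed; the change to genes with at least 10 counts was chosen after seeing the data, and it moved the calls over all genes from 5763 higher and 3689 lower to 5638 and 3917, and the members' median log2 count ratio from 3.03 to 2.98. With the trend on GC content removed the median log2 count ratio was 1.14, and the direction turned for Tubb3 (-1.14) and Tubb4a (-0.34), but not on the TPM scale, where they were at 0.25 and 0.89 and the median was 1.81; the cause was not tested. With TPM rescaled without mitochondrial genes and their nuclear copy, an alternative chosen after seeing the data, the median log2 TPM ratio was 2.78. With library totals, genes called lower numbered 1 of the folding genes, 1 of the modifying enzymes and 0 of the nucleation genes, and with no minimum fold 6 of the modifying enzymes; these list alternatives were also added after seeing the data. Leaving out 1 library at a time gave summed TPM of 433.8 to 5149.6, Tuba1a shares of 53.5% to 76.6% and Tubb2a shares of 16.6% to 26.1%. No paired analysis was possible because there is 1 group. Counting depth limits Tuba1c, with 3.16 counts in replicate 1.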

Other observations

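Processed pseudogenes that share windows with the alpha genes drew few counts. Gm14150 had 0 and 17.4 counts in replicates 1 and 2, Gm17383 0 and 14.4, Gm5620 1.20 and 3.41, Gm6682 0 and 3.16, and Gm3756 0 in both. Of the copies of the beta gene Tubb4b, Tubb4b-ps1 had 0 and 3.45 counts and Tubb4b-ps2 0 in both, beside 371 and 5941 for Tubb4b.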
